A study of Homo sapiens with 6 samples.

Results

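The 10 genes described here are a decoy receptor, the death receptors and the first proteins that act behind them, and they were taken by gene name from the 50868 genes of the deposited expression table. They are TNFRSF6B, the receptors FAS, TNFRSF10A, TNFRSF10B, TNFRSF1A, TNFRSF12A and TNFRSF21, the adaptor FADD, the protease CASP8 and its inhibitor CFLAR. TNFRSF6B was chosen on its fall between the 2 groups, so its own difference is given as a description without a test, and the other 9 were named beside it for their role. RNA-seq was run on HCT116, a human colorectal cancer line, after transfection with pcCon, the empty vector pcDNA3.1(+), or with pcYY2, the same vector carrying YY2, a zinc finger transcription factor related to YY1. Each group had 3 samples, pcCon-1 to pcCon-3 and pcYY2-1 to pcYY2-3, and both groups were otherwise unmodified HCT116. The sources used here do not say whether the 3 samples of a group came from separate cultures, so p-values measure only the spread between these samples, which may be technical. Transfection was transient, and the share of cells that took up the vector is not given.

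Death receptors are members of the tumor necrosis factor (TNF) receptor superfamily that carry a death domain in their cytoplasmic part. When a ligand such as Fas ligand or TRAIL clusters them, the adaptor FADD binds the death domain and recruits procaspase-8, which cleaves itself and starts the caspase cascade of apoptosis, whereas the caspase-8 homologue CFLAR (c-FLIP) occupies the same complex and holds the protease back. Decoy receptors bind the ligands without passing a signal on, and the soluble decoy receptor TNFRSF6B (DcR3), known for high levels in colon and other cancers, takes up Fas ligand, LIGHT and TL1A.

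The libraries held between 15158360 and 29572882 counted reads, the deepest being pcYY2-2. The targeted gene followed the labels, since YY2 stood at 2.22, 2.52 and 1.73 FPKM (reads per length of the gene and per total of counted reads) in pcCon and at 11.6, 11.1 and 11.0 FPKM in pcYY2. Of the 7 fixed markers of colon epithelium, 5 were well above the filter for testing, with EPCAM between 68.9 and 76.8 FPKM, while CDX1 had no read in any library and VIL1 had at most 2 reads in any library. Of these markers KRT8 and KRT19 were higher in pcYY2 (log2 fold changes 0.67 and 0.60, adjusted p = 0.0117 and 0.00209). A gene was tested when its FPKM averaged 1 or more over the 6 samples, which left 12015 genes. Calls were made at 0.05 after Benjamini-Hochberg adjustment over all of them, and edgeR's quasi-likelihood test called 543 higher and 583 lower in pcYY2, 9.37% of the genes tested, 4.52% upward and 4.85% downward. The median log2 fold change of all tested genes was 0.00, and the FPKM values of the groups did not overlap for 35.8% of them. In the same test 3467 of the 12015 genes had an unadjusted p under 0.05.

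TNFRSF6B lies on chromosome 20 of GRCh38, at 63696668 to 63698684 on the plus strand in the deposited table, and has 3 exons. GENCODE release 44 also annotates RTEL1-TNFRSF6B on the same strand, a readthrough gene that runs from RTEL1, a DNA helicase of telomere maintenance, into TNFRSF6B. All 1140 exonic bases of TNFRSF6B (100%) lie inside exons of RTEL1-TNFRSF6B. The second and the third exon, of 195 and 405 bases, are identical in both genes. The first exon of TNFRSF6B, from 63696652 to 63697191, lies within a readthrough exon of 1414 bases that starts at 63695778 in 2 retained-intron transcripts, and in the other 2 readthrough transcripts that exon starts at 63696760, which is 108 bases inside it. A further 43 bases (3.77%) are shared with ARFRP1, a small GTPase gene on the opposite strand. The start of the coding sequence is shown because every one of its bases is exonic in both genes, so a read that falls inside it carries no letter that tells them apart. It covers chr20:63696768-63696887 of GRCh38 on the plus strand, and the capitals mark the start codon.
TNFRSF6B coding start: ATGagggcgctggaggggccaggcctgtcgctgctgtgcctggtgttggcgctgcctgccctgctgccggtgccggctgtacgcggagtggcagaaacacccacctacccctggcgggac

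The region before the start is shown because it is exonic in some transcripts of the readthrough gene but in none of TNFRSF6B. These 250 bases of chr20:63696402-63696651 (GRCh38.p14, plus strand, RefSeq) precede the TNFRSF6B transcript and, in GENCODE, are exonic in the 2 retained-intron readthrough transcripts.
TNFRSF6B upstream: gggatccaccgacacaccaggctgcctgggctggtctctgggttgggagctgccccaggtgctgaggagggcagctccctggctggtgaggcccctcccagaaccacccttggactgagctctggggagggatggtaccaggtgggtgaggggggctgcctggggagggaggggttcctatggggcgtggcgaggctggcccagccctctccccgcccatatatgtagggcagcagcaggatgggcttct

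TNFRSF6B had 219, 205 and 172 reads in the pcCon libraries and 1 read in each pcYY2 library. Per length this was 10.7, 9.99 and 10.1 FPKM against 0.0581, 0.0301 and 0.0484 FPKM. The 3 pcCon libraries were close to each other, the 3 pcYY2 libraries stood below the limit that 3 reads set, and the groups did not overlap. Pooled over libraries, 596 reads of 51615783 in pcCon stood against 3 of 63282343 in pcYY2, a ratio of 244 (95% exact interval 82.9 to 1184, which covers counting error only). The interval leaves out the spread between libraries and the choice of the gene by its fall, so it is not a test. The fitted log2 fold change was -7.72. Of 11120 genes with at least 100 reads in every pcCon library, 1 had at most 3 reads in every pcYY2 library, TNFRSF6B itself, and 0 genes showed the reverse. The pattern was thus not shared by any other gene of the table at these limits.

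Reads given to the readthrough gene stood the other way round. RTEL1-TNFRSF6B had 853, 897 and 867 reads in pcCon and 905, 1882 and 1113 in pcYY2, which is 46.8, 49.2 and 57.2 CPM (reads divided by all reads counted in that library, at a common scale) against 59.1, 63.6 and 60.5 CPM. All pcYY2 libraries were above all pcCon libraries, although the difference did not pass the test over all genes (log2 fold change 0.27, SE 0.09, adjusted p = 0.0890). As CPM means, TNFRSF6B went from 11.5 ± 0.429 (SD, n = 3) to 0.0512 ± 0.0160 (SD, n = 3), lower by 11.5 CPM. The readthrough gene averaged 51.1 ± 5.43 CPM in pcCon and 61.1 ± 2.34 CPM in pcYY2 (SD, n = 3 each), a difference of 10.01 CPM, close in size to that of TNFRSF6B and opposite in sign.

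Added together, the 2 genes stood at 58.9, 60.4 and 68.5 CPM in pcCon and at 59.1, 63.7 and 60.6 CPM in pcYY2. The groups overlapped, and the sum differed by 1.47 CPM, less than the spread within pcCon. TNFRSF6B held 20.4%, 18.6% and 16.6% of the summed reads in pcCon and 0.110%, 0.0531% and 0.0898% in pcYY2. When the same-strand pair was counted as one gene and the fit across all genes was repeated, the log2 fold change was -0.02 (SE 0.07, adjusted p = 0.892), and with ARFRP1 added it was -0.05 (SE 0.06, adjusted p = 0.629). As counted, the groups differed in how the reads were divided between the 2 gene names, and a fall of the summed reads was not detected.

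**Figure D1:**
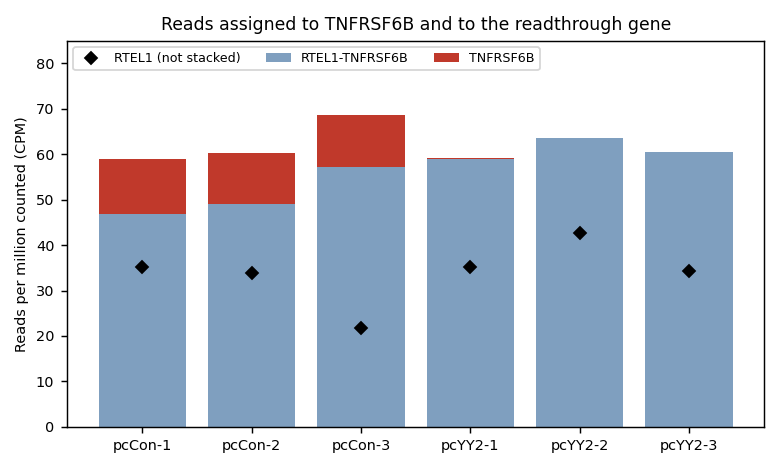
Stacked bars give CPM (vertical axis from 0) assigned to RTEL1-TNFRSF6B (blue) and to TNFRSF6B (red) in each of the 6 libraries, and black diamonds give RTEL1, which is not stacked. The red part is 11.2 to 12.0 CPM high in pcCon and under 0.1 CPM in pcYY2, while the whole bars lie between 58.9 and 68.5 CPM in both groups.

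RTEL1 itself had 35.1, 33.8 and 21.6 CPM in pcCon and 35.2, 42.7 and 34.4 CPM in pcYY2 (log2 fold change 0.33, SE 0.19, adjusted p = 0.305), so its groups overlapped and pcCon-3 was the lowest library. Of the 8 genes listed from this locus (RTEL1, RTEL1-TNFRSF6B, ARFRP1, ZGPAT, LIME1, SLC2A4RG, STMN3 and GMEB2) all were tested and 0 were called in either direction by edgeR or by DESeq2. Their median log2 fold change was -0.04, and 1 had an unadjusted p under 0.05, beside 3467 of all 12015 tested genes. The mode by which reads on shared exons were counted, and whether strand was used, are not given in the sources used here, so reads of TNFRSF6B, of the readthrough gene and of the antisense ARFRP1 cannot be told apart where they overlap.

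Other genes that overlap a readthrough gene gave a measure of how stable such a division of reads was within a group. Over 141 pairs of a readthrough gene and 1 of its parts (140 different parts) with a mean of at least 100 reads in a group, the group means on log2(CPM + 0.5) differed by at least 1 for 4 parts. Of the sums, 3 differed by at least 1. TNFRSF6B differed by -4.45 alone and by -0.03 when summed with its readthrough gene. RBAK, a zinc finger gene, differed by -1.44 alone and by -1.39 when summed, so its difference was alike either way. PLA2G4B, a phospholipase gene, differed by 1.03 alone and 0.06 summed, and BCL2L2, an inhibitor of apoptosis, differed by 1.57 alone and 0.76 summed with overlapping groups. Summing also went the other way: BLOC1S5 differed by -0.12 alone and 1.23 summed with BLOC1S5-TXNDC5. RAB43 differed by 0.59 alone and -1.02 summed.

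Within a group, the range over the 3 replicates reached 1 or more on this scale for 24 parts, against 18 for the sums. In all 11844 genes at or above the same abundance the median range was 0.252, and 4.38% reached 1. TNFRSF6B had a range of 0.0944 in pcCon, while with 1 read per library its range in pcYY2 is held near 0 by the pseudocount and says nothing of the division. In 4 parts the range was at least 1 while the sum ranged by less than 0.5. TXNDC5, a protein disulfide isomerase, had 6546, 6270 and 1570 reads in pcCon and 1250, 9512 and 1512 in pcYY2, a range of 1.97 that fell to 0.35 in the sum. Its readthrough gene BLOC1S5-TXNDC5 had 0, 31 and 2705 reads in pcCon and 3563, 0 and 4376 in pcYY2. Reads at this pair were thus assigned to either name in libraries of the same group. EIF4A1, an RNA helicase of translation initiation, had 2577, 2845 and 6054 reads in pcCon and 3051, 4167 and 2564 in pcYY2, with ranges of 1.49 alone and 0.25 summed. CDRT4 ranged by 1.83 alone and 0.12 summed, and SAPCD1 by 1.46 alone and 0.35 summed. In other pairs the sum ranged more widely, as for BLOC1S5 (0.53 alone, 4.02 summed with BLOC1S5-TXNDC5) and P2RY11 (1.29 alone, 1.92 summed). These pairs and the pairs with a group difference were picked by size after their values were seen, and what decided the division in a library was not tested.

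**Figure D2:**
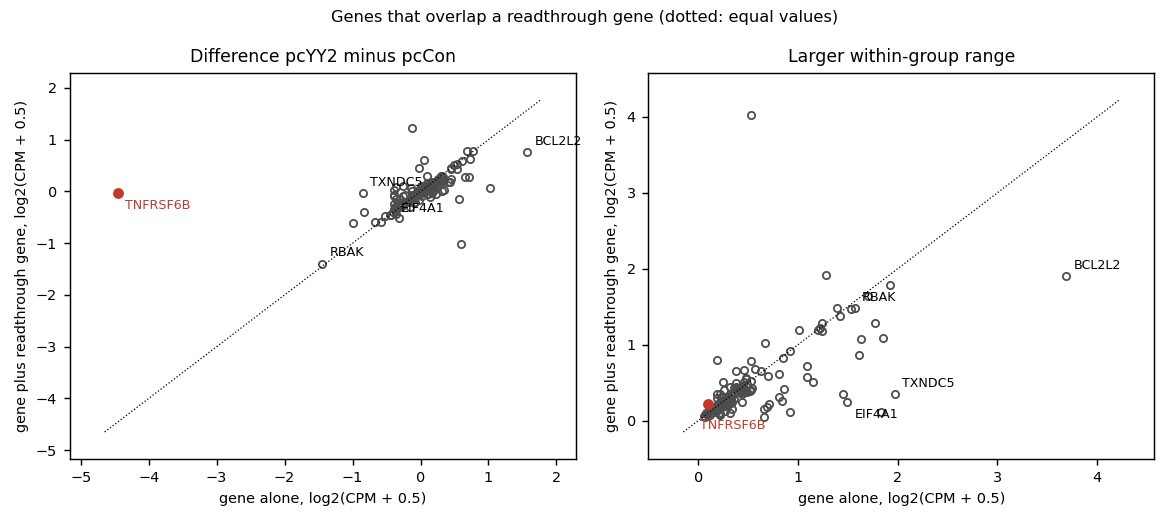
Each point is a gene that overlaps a readthrough gene, with its value alone on the horizontal axis and summed with the readthrough gene on the vertical axis, both as log2(CPM + 0.5). In the left panel (pcYY2 minus pcCon) TNFRSF6B, in red, lies at -4.45 and -0.03, far from the dotted line of equal values, and in the right panel (the larger range over the 3 replicates of a group) TXNDC5 and EIF4A1 lie below the line while TNFRSF6B has a range of 0.0944, that of pcCon.

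Among the remaining receptors, the adaptor, the protease and its inhibitor, few passed the test. Of the 9 members besides TNFRSF6B, 8 passed the filter on low values, 0 were called higher and 1, TNFRSF21, was called lower, with 7 not called, beside 9.37% of all tested genes called in either direction and 4.85% lower. DESeq2 gave the same counts. An unadjusted p under 0.05 was reached by 3 of the 8, FAS and TNFRSF10A higher and TNFRSF21 lower, beside 3467 of all 12015 tested genes. The log2 fold changes of the 8 tested members ran from -0.32 to 0.32 with a median of 0.03, beside 0.00 for all tested genes. In pcCon the order of the levels per length was TNFRSF21 (25.9 ± 0.780 FPKM, SD, n = 3), TNFRSF10B (14.4), FADD (14.04), TNFRSF10A (13.4), TNFRSF12A (12.1), TNFRSF6B (10.3), TNFRSF1A (6.83), CASP8 (4.01), FAS (1.59) and CFLAR (0.651). From TNFRSF10B down to TNFRSF6B each gene overlapped its neighbour, and the other neighbours with a mean of at least 1 FPKM were apart. These levels depend on the gene lengths behind the FPKM values, which were 30381 bases for CFLAR and 12219 bases for CASP8 against 22478 and 7237 exonic bases in GENCODE.

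**Figure D3:**
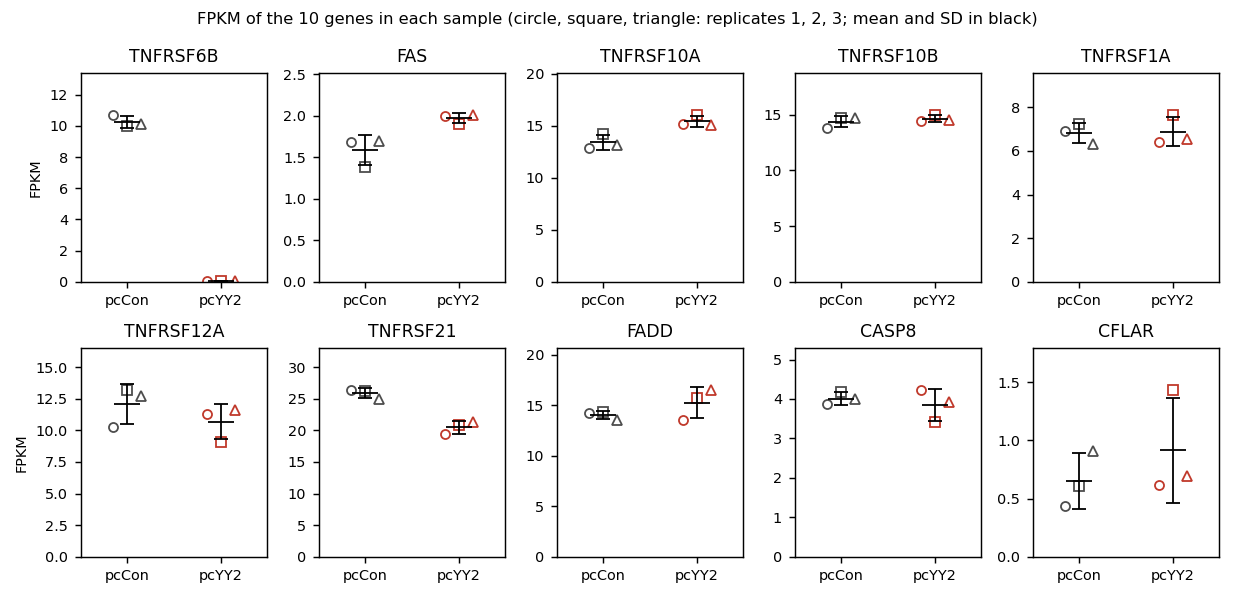
FPKM (vertical axes from 0, a separate scale for each gene) in the 3 pcCon libraries (grey) and the 3 pcYY2 libraries (red), with circle, square and triangle for replicates 1, 2 and 3 and the group mean and SD in black. TNFRSF6B drops from about 10.3 to under 0.1 FPKM, TNFRSF21 from 25.9 to 20.5 FPKM, FAS and TNFRSF10A lie slightly higher in pcYY2, and the other groups overlap.

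TNFRSF21 (DR6) is a death receptor best known from neurons and lymphocytes, on chromosome 6 at 47231532 to 47309905, minus strand. It stood at 26.4, 26.2 and 24.96 FPKM in pcCon and at 19.4, 20.8 and 21.3 FPKM in pcYY2. Every pcYY2 library lay below every pcCon library. The mean fell from 25.9 ± 0.780 to 20.5 ± 1.02 FPKM (SD, n = 3), a log2 fold change of -0.32 (SE 0.06, adjusted p = 0.0235 by edgeR's quasi-likelihood test). The change was small and near the threshold: the call was lost without pcCon-1, pcCon-2, pcCon-3, pcYY2-2 or pcYY2-3, each left out alone, with adjusted p up to 0.0831, and the direction was kept in each of these fits. Leaving out 1 library also cut the calls over all genes, from 543 higher and 583 lower to 138 to 412 higher and 147 to 393 lower.

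FAS (CD95), the receptor of Fas ligand, is on chromosome 10 at 88990531 to 89015785, plus strand. It had 1.69, 1.38 and 1.70 FPKM in pcCon and 2.00, 1.90 and 2.01 FPKM in pcYY2. The groups did not overlap, but the log2 fold change of 0.32 (SE 0.11) had an adjusted p of 0.0993. FAS shares 0.566% of its exonic bases with STAMBPL1 on the same strand (182, 176 and 164 reads in pcCon, 135, 223 and 144 in pcYY2). It shares 1.32% with ACTA2 on the opposite strand. Summed with both, FAS had a log2 fold change of 0.09 (SE 0.07, adjusted p = 0.439). That sum holds all reads of both partners, which equal 58.2% and 17.9% of the FAS reads, so most of what was added need not come from shared bases.

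TNFRSF10A and TNFRSF10B (DR4 and DR5) are the signalling receptors of TRAIL and lie near each other on chromosome 8, minus strand, at 23190452 to 23225126 and 23020133 to 23069179. TNFRSF10A had 12.8, 14.2 and 13.2 FPKM in pcCon and 15.2, 16.1 and 15.1 FPKM in pcYY2, with groups apart, a log2 fold change of 0.22 (SE 0.06) and an adjusted p of 0.0750. TNFRSF10B had 13.8, 14.6 and 14.7 FPKM against 14.4, 14.97 and 14.5 FPKM, with overlapping groups and a log2 fold change of 0.04 (SE 0.05, adjusted p = 0.639). Both share exonic bases with genes on the opposite strand: TNFRSF10A with TNFRSF10A-DT (9.09% of its bases) and with TNFRSF10A-AS1, which had no read, and TNFRSF10B with RHOBTB2 (7.52%). The sums hold all reads of these partners, not only those on shared bases. Summed with these partners, the log2 fold changes were 0.16 (adjusted p = 0.128) and 0.08 (adjusted p = 0.289).

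TNFRSF1A, the main receptor of TNF, is on chromosome 12 at 6328757 to 6342114, minus strand. It had 6.94, 7.22 and 6.33 FPKM in pcCon and 6.42, 7.65 and 6.56 FPKM in pcYY2, with overlapping groups and a log2 fold change of 0.03 (SE 0.09, adjusted p = 0.870). TNFRSF12A (Fn14), the receptor of TWEAK, has no death domain and is on chromosome 16 at 3018445 to 3022383, plus strand. It had 10.3, 13.2 and 12.7 FPKM against 11.3, 9.12 and 11.6 FPKM, again overlapping, with the widest relative spread among the tested receptors, and a log2 fold change of -0.16 (SE 0.13, adjusted p = 0.443).

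FADD, the adaptor, is on chromosome 11 at 70203163 to 70207390, plus strand. It stood at 14.2, 14.3 and 13.6 FPKM in pcCon and at 13.5, 15.7 and 16.5 FPKM in pcYY2 (log2 fold change 0.13, SE 0.09, adjusted p = 0.387), and the groups overlapped through pcYY2-1. An antisense gene known only as ENSG00000254721 covers 59.2% of its exonic bases and had no read in any library.

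CASP8, the initiator protease, is on chromosome 2 at 201233443 to 201287711, plus strand, close to CFLAR. It stood at 3.87, 4.18 and 3.995 FPKM in pcCon and at 4.23, 3.43 and 3.92 FPKM in pcYY2 (log2 fold change -0.04, SE 0.09, adjusted p = 0.773). The groups overlapped over their whole pcCon range.

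CFLAR, on chromosome 2 at 201116104 to 201176687, plus strand, was the least uniform member. It had 241, 335 and 420 reads in pcCon and 287, 1289 and 388 in pcYY2, which is 13.2, 18.4 and 27.7 CPM against 18.7, 43.6 and 21.1 CPM. One library, pcYY2-2, stood above all others, and the remaining 5 ranged from 13.2 to 27.7 CPM. Its mean of under 1 FPKM kept CFLAR out of the main test, and at a filter of 0.1 FPKM the log2 fold change was 0.55 (SE 0.38, adjusted p = 0.437). The 3 overlapping genes of CFLAR (CFLAR-AS1, IMPDH1P10 and ENSG00000234431) had at most 5 reads in any library, and summed with them its log2 fold change was 0.52 (SE 0.38, adjusted p = 0.416), or 0.03 without pcYY2-2.

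The library with the highest CFLAR was also the one with the highest level of 3 leukocyte markers. These markers were chosen from the list after its values were seen. PTPRC, CD3E and CD14 (CD45, a T cell receptor subunit and a monocyte marker) together had 19, 7 and 8 reads in pcCon and 1, 98 and 6 in pcYY2, which is 1.04, 0.384 and 0.528 CPM against 0.0653, 3.31 and 0.326 CPM. All 3 markers had reads in pcYY2-2, at levels far under those of CFLAR. CD68, a macrophage marker of the same list, did not follow them, with 0.387, 0.339 and 0.451 FPKM in pcCon and 0.710, 0.614 and 0.743 FPKM in pcYY2, where pcYY2-2 was the lowest of its group. PDGFRB and VWF of that list were also not highest in pcYY2-2 (0.0635 FPKM against 0.0652 in pcCon-3, and 0.0561 against 0.0619 in pcYY2-1). PECAM1 was highest there, at 0.101 FPKM, and COL1A1 stood at 2.66 FPKM in both pcYY2-1 and pcYY2-2. The whole list of 9 markers of other cells, summed, lay between 28.3 and 31.1 CPM in pcCon and between 32.7 and 42.9 CPM in pcYY2, most of it from COL1A1, while COL1A2, the gene for the partner chain of the same collagen, had no read in any library. The part of other cells in the CFLAR level was not tested, and in bulk samples fewer cells of a type and less RNA per cell cannot be told apart.

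**Figure D4:**
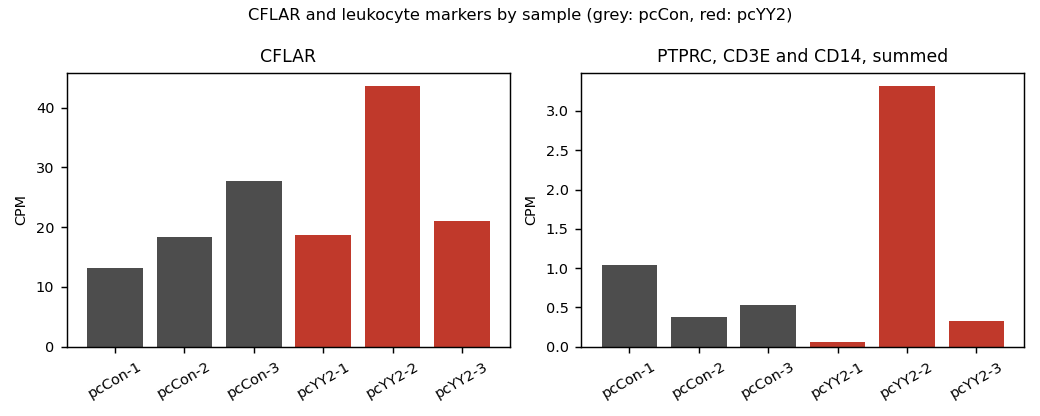
Bars give CPM (vertical axes from 0, separate scales) for CFLAR (left) and for PTPRC, CD3E and CD14 summed (right) in each library, grey for pcCon and red for pcYY2. Both panels are highest in pcYY2-2, at 43.6 and 3.31 CPM, the 3 markers having been chosen from a list of 9 after their values were seen.

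Of 6 ligands named for the members, which are not a full set, 5 had at most 10 reads in any library, and TNFSF12 was the exception. FASLG (Fas ligand) had 0, 0 and 1 read in pcCon and 0, 4 and 0 reads in pcYY2, and TNFSF10 (TRAIL) had 0, 2 and 0 against 5, 10 and 2 reads. TNF and TNFSF14 (LIGHT) had no read in any library, and TNFSF15 (TL1A) had 2, 0 and 1 against 0, 0 and 0 reads. All 3 ligands that TNFRSF6B binds were therefore at or below 4 reads in every library. TNFSF12 (TWEAK), the ligand of TNFRSF12A, had 140, 94 and 110 reads in pcCon and 119, 133 and 62 in pcYY2 (log2 fold change -0.36, SE 0.31, adjusted p = 0.487). Of the 18 TNF superfamily ligands listed, 2 were tested and 1 was called: TNFSF9 (4-1BBL), a T cell costimulator, was higher, with 9.90, 8.92 and 9.07 FPKM in pcCon and 12.6, 13.7 and 12.2 FPKM in pcYY2 (log2 fold change 0.48, SE 0.09, adjusted p = 0.0257). TNFSF18 (GITR ligand), outside the rule for named genes and chosen after its values were seen, had 46, 28 and 28 reads against 7, 20 and 15. It was under the filter, and at 0.1 FPKM its log2 fold change was -1.54 (SE 0.32, adjusted p = 0.0414).

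Counted alone, TNFRSF6B lost nearly all of its reads in pcYY2, and the other decoy receptors with reads did not. This contrast holds only for reads given to the name TNFRSF6B. With the reads of its same-strand readthrough gene added, no fall was detected (log2 fold change -0.02, SE 0.07). TNFRSF10D (DcR2), a decoy of TRAIL, had 21.95, 23.2 and 21.3 FPKM in pcCon and 22.7, 21.7 and 20.7 FPKM in pcYY2 (log2 fold change -0.02, SE 0.06, adjusted p = 0.879). TNFRSF10C (DcR1) was under the filter with 50, 51 and 60 reads against 65, 145 and 91, which is 0.670, 0.681 and 0.965 FPKM against 1.03, 1.196 and 1.21 FPKM. Its groups were apart with pcYY2 above, beside 35.8% of all tested genes whose groups did not overlap. At a filter of 0.1 FPKM its log2 fold change was 0.62 (SE 0.19, adjusted p = 0.113 by edgeR), not called. TNFRSF11B (osteoprotegerin), which can also bind TRAIL, had no read in any library. Of the 22 other receptors of the superfamily listed, 8 were tested and 0 were called in either direction by edgeR or by DESeq2. Their median log2 fold change was 0.10, with 1 at an unadjusted p under 0.05, beside 3467 of all 12015 tested genes.

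Ligands and the other receptors included, 5 of 64 tested genes of the 8 pathway lists were called, 2 higher and 3 lower, beside 9.37% of all genes. At an unadjusted p under 0.05 stood 23 of the 64, beside 3467 of all 12015 tested genes. The lists held 113 genes, of which 18 had at most 3 reads in every library, and the median log2 fold change of the tested genes was 0.06. Among the 20 proteins of the receptor complexes, 17 were tested and 1 was lower, TRAF5, an adaptor of several TNF receptors, with 1.42, 1.51 and 1.34 FPKM in pcCon and 0.963, 0.934 and 1.01 FPKM in pcYY2 (log2 fold change -0.54, SE 0.08, adjusted p = 0.0149). An unadjusted p under 0.05 was reached by 7 of these 17, 4 higher and 3 lower. Of the 11 other caspases and factors of the mitochondrial branch, 10 were tested and 0 were called by edgeR (median 0.05), with 2 at an unadjusted p under 0.05 and 1 called higher by DESeq2, APAF1, the scaffold of the apoptosome. Of the 6 inhibitor of apoptosis proteins 3 were tested and 0 called by edgeR or DESeq2 (median 0.32), with 1 at an unadjusted p under 0.05. Of the 3 necroptosis genes only MLKL was tested (log2 fold change 0.26, SE 0.11, adjusted p = 0.154) while RIPK3 had at most 2 reads in any library.

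In the BCL2 family, 11 of 15 genes were tested, and 5 of the 11 had an unadjusted p under 0.05, 3 higher and 2 lower. BCL2L1, which encodes the apoptosis inhibitor Bcl-xL, was called lower. It had 19.9, 20.1 and 19.7 FPKM in pcCon and 13.4, 14.3 and 12.8 FPKM in pcYY2 (log2 fold change -0.54, SE 0.06, adjusted p = 0.00552), with groups well apart. BCL2L11, which encodes the apoptosis promoter Bim, had the most negative log2 fold change of the lists, -1.95 (SE 0.64, adjusted p = 0.0986), and is named after its values were seen. It had 673, 124 and 612 reads in pcCon against 159, 139 and 126 in pcYY2, so 1 pcCon library lay at the level of pcYY2 and the groups overlapped.

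Among 18 targets of NF-kappaB, the transcription factor that TNF receptors activate, 12 were tested, with 1 higher and 1 lower, beside 4.52% and 4.85% of all tested genes. NFKBIA, which encodes its inhibitor IkB-alpha, had 3.19, 3.01 and 2.81 FPKM in pcCon and 3.94, 4.09 and 4.42 FPKM in pcYY2 (log2 fold change 0.48, SE 0.08, adjusted p = 0.0215). IER3, an early response gene, had 83.3, 84.1 and 90.4 FPKM against 58.2, 60.6 and 64.2 FPKM (log2 fold change -0.48, SE 0.06, adjusted p = 0.00758). Both had groups apart, in opposite directions. An unadjusted p under 0.05 was reached by 5 of the 12 tested targets, 4 higher and 1 lower, beside 3467 of all 12015 tested genes. With 1 library left out at a time, TNFSF9 lost its call each time (adjusted p up to 0.0922), NFKBIA lost it without any library except pcYY2-1 (up to 0.0771), and TRAF5 lost it without pcCon-1 or pcCon-2 (up to 0.0621). BCL2L1 and IER3 were called in all 6 of these fits, in which fewer of all tested genes were called than with every library.

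**Figure D5:**
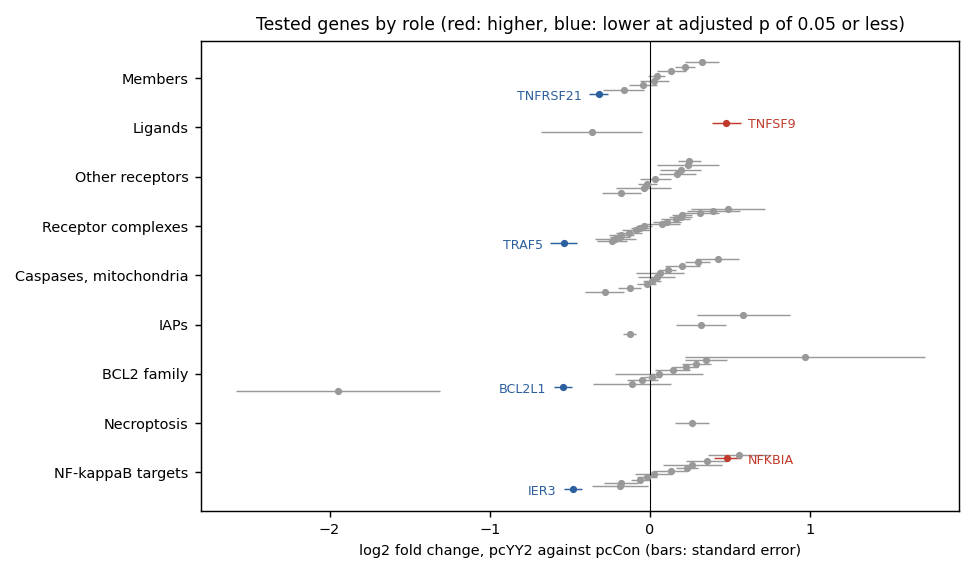
Log2 fold change of pcYY2 against pcCon (horizontal axis) with its standard error for each tested gene, in rows by role, with TNFRSF6B left out. Red points were called higher (TNFSF9, NFKBIA) and blue points lower (TNFRSF21, TRAF5, BCL2L1, IER3), and the members other than TNFRSF6B lie between -0.32 and 0.32.

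Sequence around the start sites was compared with the motif shared by YY1 and YY2, whose core is GCCAT and whose fuller form was searched as CGCCATNTT, on both strands, the core being contained in the fuller form. In RefSeq windows from 250 bases before to 50 bases after a start (GRCh38.p14), the fuller form was found in 3.19% and the core in 37.8% of all 35116 windows. For 7 of the 10 members 14 windows were found, of which 0 held the fuller form and 3 held the core, 2 for CASP8 and 1 for CFLAR. TNFRSF10A, TNFRSF10B and TNFRSF12A were not matched. A match is a description of letters and not a site, and the lack of a match does not show that no site is there. CASP8 had 3 windows, the first without a match. The matches of the other 2 are shown with the core in capitals, where ATGGC is GCCAT read on the other strand, at chr2:201257827-201257867 and chr2:201260292-201260332 (plus strand), beside values of CASP8 that did not pass the test.
CASP8 window 2: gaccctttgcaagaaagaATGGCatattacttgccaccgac
CASP8 window 3: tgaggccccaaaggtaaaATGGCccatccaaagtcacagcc

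The windows of TNFRSF21 and TNFRSF6B held neither form, and sites outside the windows or with other letters were not searched. TNFRSF21 is shown because it was the only member besides TNFRSF6B called by the test. The 250 bases are chr6:47309906-47310155 (GRCh38.p14, minus strand, RefSeq) in the direction of transcription. Its 300-base window had 63.3% G and C and that of TNFRSF6B 69.0%, beside a median of 58.7% over all windows.
TNFRSF21 upstream: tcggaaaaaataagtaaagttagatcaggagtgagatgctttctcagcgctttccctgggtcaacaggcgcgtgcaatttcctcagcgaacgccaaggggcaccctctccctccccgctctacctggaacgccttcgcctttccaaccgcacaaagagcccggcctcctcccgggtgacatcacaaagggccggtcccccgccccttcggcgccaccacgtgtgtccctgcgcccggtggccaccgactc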

How the data were processed

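PolyA RNA of 6 HCT116 samples, 3 per group, was sequenced. Reads were filtered and mapped to GRCh38, and the authors deposited raw counts per gene and FPKM per gene and sample. Bowtie2, HTSeq and TopHat stand in the submitters' processing notes. The deposited FPKM equal the count over a fixed gene length and the sample's total count. The counting mode and strand setting are not given in the sources used here.

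Counts were tested in R 4.3.3 with edgeR 4.0.16 (TMM factors, quasi-likelihood test, genes whose FPKM averaged 1 or more, Benjamini-Hochberg adjustment over all genes tested, no covariate), and the steps were first tested on simulated data. CPM are counts scaled to the library's total count. GENCODE release 44 gave shared exonic bases, and counts of genes sharing them were summed and refitted. limma 3.58.1 (on log2 FPKM with a pseudocount) and DESeq2 1.42.0 served as alternatives. The authors' Cuffdiff results were not used here. For a single gene, the smallest two-sided p of an exact permutation test is 0.1 at this sample size.

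Members and gene lists were chosen with earlier results of these data known. Named genes were all members, genes sharing exons with them, every called gene of the lists (at most 6 per list), 6 ligands of the members, 3 decoy receptors, and genes with at least 100 reads in every pcCon and at most 3 in every pcYY2 library.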

Additional observations from a re-analysis of the deposited data

How the results depend on the processing

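Against 543 higher and 583 lower genes, a filter of 0.1 FPKM gave 496 and 414, no filter 489 and 431, upper quartile scaling 464 and 684, DESeq2's size factors in edgeR 560 and 584, DESeq2 713 and 726, and limma on log2(FPKM + 1) 461 and 563 (463 and 563 with 0.1 in place of 1). Leaving out 1 library gave 138 to 412 higher and 147 to 393 lower. The labels number the samples of both groups 1 to 3. Deviations from the group means of same-numbered samples correlated at -0.0318 to -0.0175, and those of other pairs at -0.0310 to 0.0569. These values showed no pairing by number, but with 3 samples per group they cannot exclude that same-numbered samples were handled together. A replicate block in the fit left 51 higher and 50 lower genes, 0 members called lower besides TNFRSF6B and 0 list genes called higher, and TNFRSF21 then stood at -0.32 (log2, adjusted p = 0.0831). Without 1 library, 0 to 1 members besides TNFRSF6B were called lower and 0 to 1 list genes higher. Across these settings, each gene counted alone, the log2 fold change of TNFRSF21 lay between -0.35 and -0.28, that of FAS between 0.20 and 0.37 and that of TNFRSF10A between 0.18 and 0.26, the last 2 uncalled. Summed with overlapping genes, all of whose reads were added, FAS went down to 0.05 and TNFRSF10A down to 0.11, also uncalled. CASP8 ran from -0.11 to 0.03 and TNFRSF1A from -0.06 to 0.08, uncalled throughout. Counting TNFRSF6B alone in place of the sum with its overlapping genes moved the log2 fold change from -0.05 to -7.72, by the construction of the sum, and without 1 library the sum stayed between -0.10 and -0.03, uncalled. Summing on the same strand alone was added after seeing the data. For CFLAR the sum with its overlapping genes ranged from 0.03, without pcYY2-2, to 0.84. The depth limits low genes: 3 reads correspond to 0.101 to 0.198 CPM, which is above TNFRSF6B in every pcYY2 library.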
